A study of Mus musculus with 8 samples.

Results

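The genes described here process the lesions that activation-induced deaminase (AID) leaves in DNA, and they were chosen by name: Ung, Msh6, Pms2, Exo1, Polh and Rev1, 6 of the 39017 genes in the gene table. All 6 were found once in the table, and all 6 were far above the filter on low values. Their RNA was measured by RNA-seq in induced germinal center B cells (iGBs), which are splenic B cells of C57BL6/J mice grown on 40LB feeder cells, a fibroblast line that displays CD40L and secretes BAFF, with 1 ng/mL of IL-4. The Prmt5-null group held 4 mice of the genotype PRMT5 FF Cgamma1-cre, in which both Prmt5 alleles are flanked by loxP sites, and the control group held 4 mice that carried Cgamma1-cre alone, so both groups expressed the Cre recombinase. RNA was taken at day 4, after elutriation had separated the B cells from the feeder layer, and each library came from 1 mouse whose age was not given in the labels. Cgamma1-cre is expressed once a B cell transcribes the Cγ1 constant region, so excision occurs in activated cells and a culture can keep cells in which Prmt5 has not been excised.

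AID converts cytosine to uracil in immunoglobulin genes of germinal center B cells. UNG, a uracil glycosylase, removes the base and leaves an abasic site. MSH6 is a part of the complex that binds the U:G mismatch, PMS2 carries the nicking activity of the complex that follows it, and EXO1 is the exonuclease that then removes a strand around the lesion. Polymerase η, encoded by Polh, fills such gaps with errors at A:T pairs, while REV1 inserts C opposite abasic sites and holds other translesion polymerases at the lesion. The balance of these enzymes against error-free repair shapes both somatic hypermutation and class switch recombination.

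Prmt5 itself, the targeted gene, had a normalized count of 1538 ± 436 (SD, n = 4) in Prmt5-null and 11774 ± 908 (SD, n = 4) in control libraries, a log2 fold change of -2.98 (SE 0.17, adjusted p = 6.14e-06, limma). Recovered library totals ran from 36731721 to 50366174 reads. The normalized count is a gene's count divided by the size factor of its library, and fold changes are on the scale of log2(normalized count + 1), as Prmt5-null minus control. By limma with Benjamini-Hochberg adjustment over 16250 genes with a mean of at least 10, 2249 genes (13.8%) passed an adjusted p of 0.05, 1058 upwards (6.51%) and 1191 downwards (7.33%). Libraries are named by genotype and mouse number, PRMT5 for Prmt5-null and CTRL for control, and without PRMT5-10771 this count was 1371. With 4 libraries a group, the smallest exact permutation p is 0.0286.

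Rev1 was the 1 of the 6 genes that passed this test, against 13.8% of all genes, and it rose 1.78-fold in Prmt5-null iGBs. Of the 6, 5 had a fold change above 0, including Polh at 0.0031 on the log2 scale, and 8184 of the 16250 genes tested did. The median of the 6 was 0.16 on the log2 scale against 0.0024 over all genes tested. The libraries of the 2 genotypes did not overlap for Ung and Rev1, 2 of the 6, and they did not overlap for 19.8% of all genes tested. With the added requirement of a change of at least 1.5-fold, Rev1 was again the 1 gene called among the 6, where 6.48% of all genes passed in either direction and 3.49% passed upwards.

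**Figure D1:**
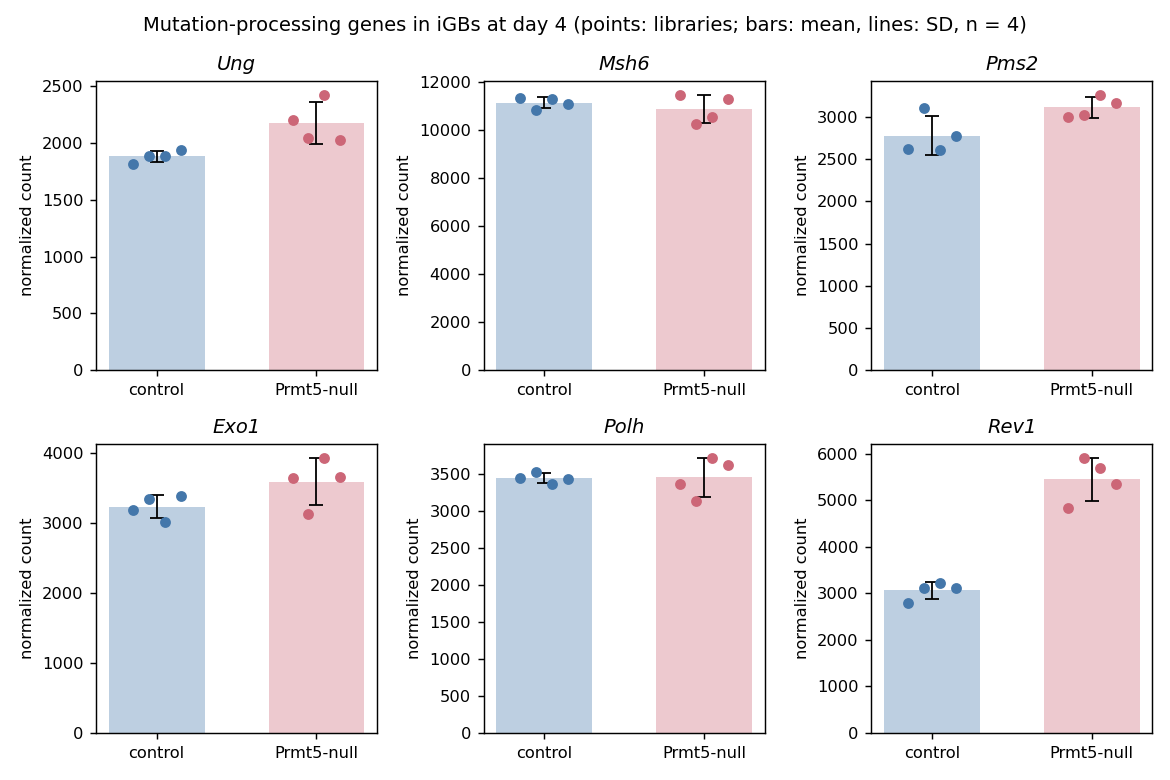
Normalized count (y axis, from 0) of the 6 genes in the 4 control and 4 Prmt5-null libraries; points are libraries, bars the mean and lines the SD. For Rev1 the Prmt5-null libraries sit between 4845 and 5920 and the control libraries between 2789 and 3225, while the points of Msh6, Pms2, Exo1 and Polh overlap between the genotypes.

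Rev1 (GRCm38, chr1:38052786-38129801, minus strand) had normalized counts of 4845, 5920, 5694 and 5359 in PRMT5-10617, PRMT5-10618, PRMT5-10770 and PRMT5-10771. Its control values were 3126, 3225, 3119 and 2789 in CTRL-10370, CTRL-10596, CTRL-10597 and CTRL-10650. The genotypes did not overlap, and the lowest Prmt5-null value exceeded the highest control value by more than the SD of either group. The means were 5455 ± 467 and 3065 ± 190 (SD, n = 4), a log2 fold change of 0.83 (SE 0.08, 95% interval 0.65 to 1.01, adjusted p = 0.000128, limma), or 1.78-fold with an interval of 1.57 to 2.01. The exact two-sided permutation test over the libraries gave p = 0.0286. By size of rise, Rev1 stood at place 588 of the 16250 genes.

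The 3′ end of Rev1 overlaps Eif5b, a translation initiation factor gene on the opposite strand, over 1643 of its 6168 annotated exonic bases. Gm37062, a gene on the same strand within Rev1 that is absent from the gene table, shares 0 exonic bases with it. Since the strand setting of the counting was not stated, reads in that overlap cannot be assigned with certainty. Eif5b had 2156 normalized counts in Prmt5-null and 2368 in control libraries (log2 fold change -0.14, SE 0.13, adjusted p = 0.501, limma), an estimate of the opposite sign that did not pass the test.

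The level of Rev1 was also taken against each of the other 5 genes within the same library, a ratio that no library size factor can change. Against Polh, the other translesion polymerase, the ratio of normalized counts was 1.59 ± 0.208 (SD, n = 4; 1.44 to 1.89) in Prmt5-null and 0.891 ± 0.0624 (SD, n = 4; 0.811 to 0.961) in control libraries. This ratio lay below 1 in every control library and above 1 in every Prmt5-null library. Against Ung the ratio was 2.52 ± 0.312 and 1.63 ± 0.0729 (SD, n = 4). Ratios to Msh6, Pms2 and Exo1 were 1.83, 1.58 and 1.61 times as high in Prmt5-null as in control libraries. All 5 ratios separated the genotypes without overlap. They share the Rev1 value of each library, and Rev1 was the gene called in these same libraries. The ratios are therefore a description and no further evidence for its rise.

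Polh (GRCm38, chr17:46171355-46202645, minus strand), the polymerase that errs at A:T pairs, showed no detectable difference. Its normalized counts were 3365, 3125, 3716 and 3612 in PRMT5-10617, PRMT5-10618, PRMT5-10770 and PRMT5-10771, and 3529, 3356, 3435 and 3440 in CTRL-10370, CTRL-10596, CTRL-10597 and CTRL-10650. Both the lowest and the highest value came from Prmt5-null libraries, and the control values lay between them. The log2 fold change was 0.0031 (SE 0.07, adjusted p = 0.985, limma), with a 95% interval of 0.896 to 1.12-fold. The sign of this estimate turned when any 1 of 3 libraries was left out: it was -0.033 without PRMT5-10770, -0.02 without PRMT5-10771 and -0.0087 without CTRL-10596.

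Ung (GRCm38, chr5:114130386-114139323, plus strand) encodes the nuclear and the mitochondrial uracil glycosylase from the same gene, and the gene count does not separate these forms. Normalized counts were 2204, 2041, 2423 and 2028 in PRMT5-10617, PRMT5-10618, PRMT5-10770 and PRMT5-10771. They were 1885, 1888, 1937 and 1814 in CTRL-10370, CTRL-10596, CTRL-10597 and CTRL-10650. The genotypes did not overlap, but the lowest Prmt5-null value was within 100 counts of the highest control value, a gap smaller than the SD of the Prmt5-null group. The means were 2174 ± 184 and 1881 ± 50.9 (SD, n = 4), 1.15-fold with a 95% interval of 1.02 to 1.30. This difference gave p = 0.0286 in the exact permutation test and did not pass the adjustment over all genes (log2 fold change 0.21, SE 0.08, adjusted p = 0.108, limma).

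Of the mismatch repair genes, Msh6 (GRCm38, chr17:87975062-87990892, plus strand) had the highest level per kilobase of the 6, in both genotypes. Its normalized counts ran from 10247 to 11450 in Prmt5-null and from 10830 to 11339 in control libraries, so the Prmt5-null range enclosed the control range. The log2 fold change was -0.03 (SE 0.07, adjusted p = 0.786, limma), with an interval of 0.882 to 1.08-fold. Its 3′ end overlaps Fbxo11 on the other strand, which had a log2 fold change of 0.02 (adjusted p = 0.944, limma).

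Pms2 (GRCm38, chr5:143909964-143933968, plus strand) had normalized counts of 3003, 3021, 3261 and 3160 in PRMT5-10617, PRMT5-10618, PRMT5-10770 and PRMT5-10771. CTRL-10370, CTRL-10596, CTRL-10597 and CTRL-10650 had 3110, 2613, 2769 and 2624. CTRL-10370 lay among the Prmt5-null values and the other 3 control libraries lay below all of them. The log2 fold change of 0.17 (SE 0.08, 95% interval -0.0039 to 0.34) did not pass the test (adjusted p = 0.180, limma), and the exact permutation test gave p = 0.0857.

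Exo1 (GRCm38, chr1:175880581-175913489, plus strand) had normalized counts of 3643, 3129, 3936 and 3660 in PRMT5-10617, PRMT5-10618, PRMT5-10770 and PRMT5-10771, and 3339, 3021, 3383 and 3181 in CTRL-10370, CTRL-10596, CTRL-10597 and CTRL-10650. PRMT5-10618 fell inside the control range and the other 3 Prmt5-null libraries lay above it. The log2 fold change of 0.15 (SE 0.08, 95% interval -0.03 to 0.33) did not pass the test (adjusted p = 0.261, limma), and the exact permutation test gave p = 0.114. The same library, PRMT5-10770, was the highest of all 8 for Ung, Pms2, Exo1 and Polh, whereas PRMT5-10618 had the lowest Msh6, Exo1 and Polh of its group and the highest Rev1.

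To set the genes side by side, normalized counts were divided by the length of all annotated exons of each gene. Per kilobase, the control means were 2561 for Msh6, 578 for Polh, 497 for Rev1, 384 for Exo1, 344 for Ung and 342 for Pms2. Ung and Pms2 did not differ beyond their spread, with control ranges of 332 to 354 and 322 to 383, and the range of Pms2 also overlapped that of Exo1, 359 to 402. In Prmt5-null libraries Rev1 was second, at 884 (786 to 960) counts per kilobase against 581 (525 to 624) for Polh, without overlap. This order rests on the length used. Over the transcript with the longest coding sequence, an alternative chosen after the data were seen, the control means per kilobase were 2619 for Msh6, 1062 for Polh, 948 for Ung, 719 for Rev1, 507 for Pms2 and 414 for Exo1. On that scale the mean of Rev1 was above that of Polh in Prmt5-null cells, at 1280 against 1067 counts per kilobase, but the ranges of 1137 to 1389 and 965 to 1147 overlapped.

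**Figure D2:**
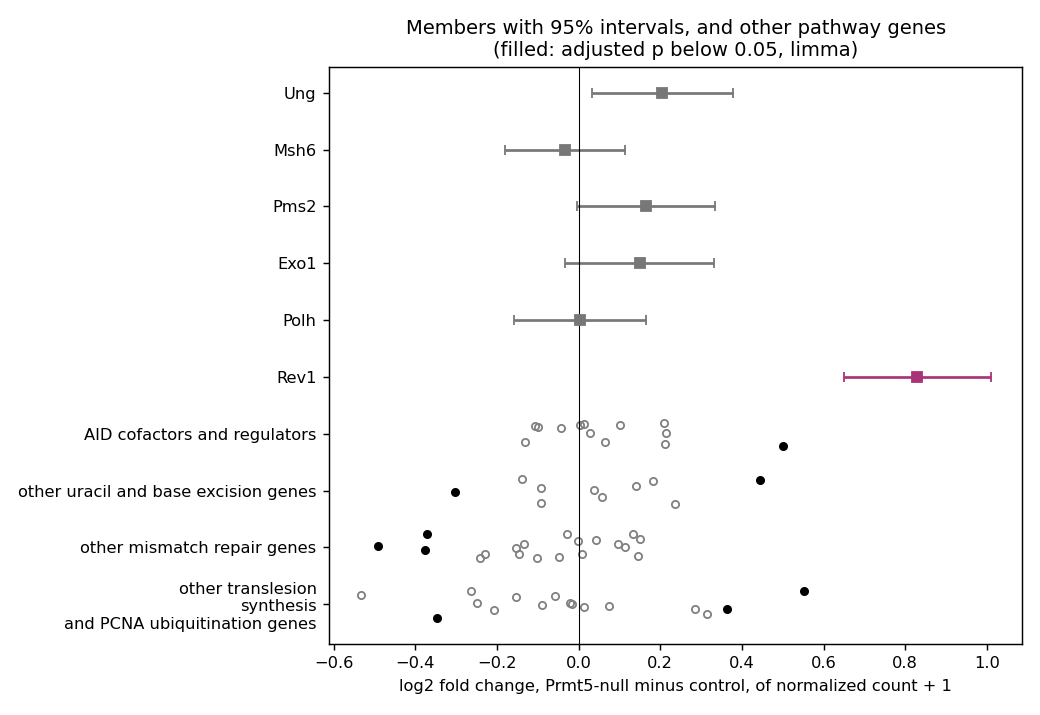
Log2 fold change (x axis, Prmt5-null minus control, of normalized count + 1) of the 6 genes, as squares with 95% intervals, and of 58 other genes of the same pathway in 4 lists, as circles; filled circles and the coloured square passed an adjusted p of 0.05 by limma. Rev1 stands at 0.83, and the other 58 genes lie between -0.53 and 0.55.

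PRMT5 is known for methylating proteins of the spliceosome, and splicing was therefore read for the same 6 genes. The deposited events are those that the authors' rMATS comparison of the genotypes selected for a difference, no more than 1 of a kind for any gene, so their inclusion levels are given as a description without a test. Of the 6 genes, 2 held an event, Pms2 with 2 and Exo1 with 1, and none was listed for Ung, Msh6, Polh or Rev1. Among genes with a mean above 50, 1519 of 13300 (11.4%) held an event, and among the 7140 genes with a mean of at least 1000, which is where all 6 genes lie, 987 (13.8%) did. By kind of event the shares of the 13300 genes were 2.53% for retained introns, 2.63% for mutually exclusive exons and 1.43% for alternative donor sites. For a retained intron or a donor site, the inclusion level is the fraction of transcripts estimated to contain the named stretch. For mutually exclusive exons it is the share of the first exon's reads against the second's, scaled by length. The 4 values of a genotype are the authors' own and do not name their libraries. The files number the genotypes without naming them, and the first was taken as control because the study describes the difference in inclusion level as WT/KO. The direction of each event rests on that reading, under which 293 of the 337 deposited retained introns were higher in Prmt5-null cells. The study also reports that Prmt5-deficient cells preferentially included introns.

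The first event was retention of intron 12 of Pms2, 675 bases at chr5:143928267-143928941 (GRCm38, plus strand), counted in the annotated transcript of 15 exons that was taken as the main one. Its borders are printed because the frame runs from exon 12 into the intron. In the first line the capitals mark the 9 bases of the donor site, the last 3 of exon 12 and the first 6 of the intron, and then the first in-frame stop codon; in the second line they mark the AG of the acceptor site. The sequences were read from GENCODE transcripts of GRCm38.
Pms2 exon 12 end into intron 12, chr5:143928237-143928330: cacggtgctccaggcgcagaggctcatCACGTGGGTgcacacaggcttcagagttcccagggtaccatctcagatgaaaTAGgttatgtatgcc
Pms2 intron 12 end into exon 13, chr5:143928912-143928971: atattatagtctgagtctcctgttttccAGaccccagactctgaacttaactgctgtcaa

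In the control cells the inclusion levels of intron 12, from junction reads and reads within the intron, were 0.163, 0.146, 0.191 and 0.151. In the Prmt5-null cells they were 0.299, 0.352, 0.235 and 0.470. All 4 Prmt5-null values lay above all 4 control values, and the means differed by 0.176 (0.339 against 0.163). From junction reads alone the means were 0.294 and 0.134, again without overlap. Behind these levels were 318 reads for the retained and 257 for the spliced form over the control libraries, and 673 and 205 over the Prmt5-null libraries. Between 118 and 269 reads supported the event in each library.

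Read on from exon 12 in the frame of that transcript, the intron gives 17 codons and then the TAG shown above, which starts at its base 50. The coding sequence has 860 codons, of which 721 are complete before the intron, and 415 of its coding bases (16.1%) lie after exon 12. The C-terminal part of PMS2, to which those bases belong, is known to carry the endonuclease activity and the contact with its partner protein. Which residues of either function lie before or after the end of exon 12 was not read here. Whether the retained form is translated or degraded was not measured. The RNA was ribosome-depleted, so reads from transcripts not yet spliced can also count as retained, and their share was not measured.

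The intron lies within an annotated exon of 1 of the 13 Pms2 transcripts, so reads from it can count towards the gene level. The reads for the retained form, untrimmed and not scaled by size factors, averaged 79.5 per control and 168 per Prmt5-null library, a difference of 88.8. The mean normalized count of the gene, from trimmed reads, differed by 332. These scales are unlike, so the share of the intron in the gene difference cannot be read from them. The first exon of Gm42421, a gene on the same strand that is absent from the gene table, extends 31 bases into the intron, and its part in the reads was not tested.

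Among the 337 retained introns deposited for all genes, 293 were higher in Prmt5-null cells and 152 rose by more than that of Pms2, for a median change of 0.163. The Pms2 intron was longer than most, since 85 of the 337 exceeded it and their median length was 246 bases, and it had a GC content of 44.6% against a median of 52.5%. Its donor matched 6 of the 9 bases of CAGGTAAGT, the sequence that pairs best with U1 RNA, and the median over the 337 introns was also 6.

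**Figure D3:**
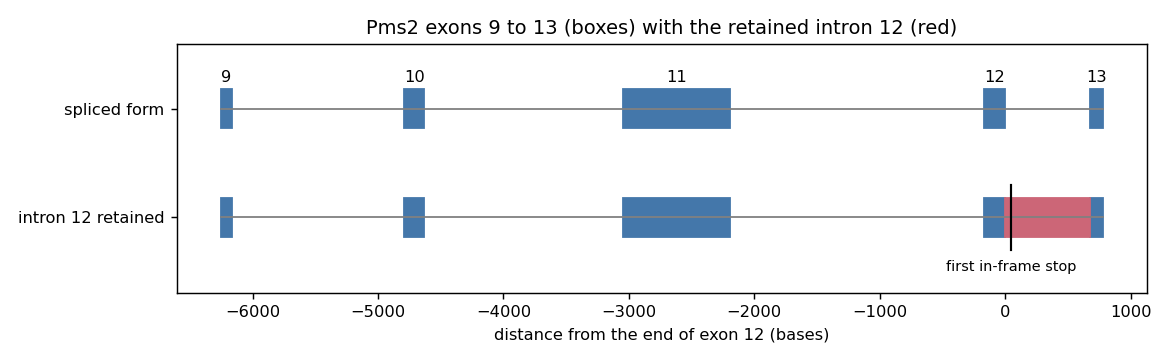
Exons 9 to 13 of Pms2 to scale (boxes; x axis, distance in bases from the end of exon 12), as the spliced form above and with intron 12 retained below, in red. The vertical line marks the first in-frame stop, 50 bases into the intron of 675 bases.

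The second Pms2 event compared exon 10 (chr5:143923477-143923632, 156 bases) with exon 12 (chr5:143928099-143928266, 168 bases) as alternatives between exons 9 and 13. The share of exon 10 was 0.526, 0.454, 0.498 and 0.610 in control and 0.603, 0.575, 0.601 and 0.637 in Prmt5-null cells. The highest control value lay among the Prmt5-null values, and the means differed by 0.082. From junction reads alone the difference was 0.119, without overlap. None of the 13 annotated transcripts joins exon 9 to exon 12 or exon 10 to exon 13. The share therefore compares the reads of these exons and does not give the fraction of transcripts that lack either. The junction of exons 12 and 13 counts for exon 12 and is lost when intron 12 is retained, so the events are not independent.

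The Exo1 event was the choice of the donor site at the end of exon 2, which is untranslated because the start codon lies in exon 3. The short form of the exon has 69 bases, and the long form adds 154 bases (chr1:175881201-175881354, GRCm38, plus strand) for a length of 223 bases. Both donors are printed to show where the exon can end, with another that annotated transcripts use 27 bases after the short one. Capitals mark the last 3 bases of the exon and, for the first 2 lines, the first 6 bases of the intron; the intron side of the long donor was not read here.
Exo1 short donor, chr1:175881186-175881215: ggagacgggactAAGGTGAAGccgctgctg
Exo1 middle donor, chr1:175881213-175881242: ctgctgttacctCGGGTACCAccggcgacc
Exo1 long donor, exon side, chr1:175881340-175881354: gaaatttcacgaAAT

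The inclusion level of the long form was 0.551, 0.518, 0.524 and 0.513 in control and 0.313, 0.467, 0.328 and 0.358 in Prmt5-null cells. The genotypes did not overlap, and the mean was lower in Prmt5-null cells by 0.160 (0.367 against 0.527). The long form had 531 and the short form 213 reads over the control libraries, and 399 and 315 over the Prmt5-null libraries. By these levels the 2 forms were about equally frequent in control cells, and the short form prevailed in each of the 4 Prmt5-null values. Transcripts that end at the middle donor carry the first 27 of the 154 bases. The part of their reads in these levels was not tested. The short donor is used by 2, the middle donor by 2 and the long donor by 1 of the 10 annotated Exo1 transcripts. Both shown donors with an intron side matched 5 of the 9 bases of CAGGTAAGT. The 154 bases hold 2 ATG triplets upstream of the start codon, and their effect on translation was not measured.

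**Figure D4:**
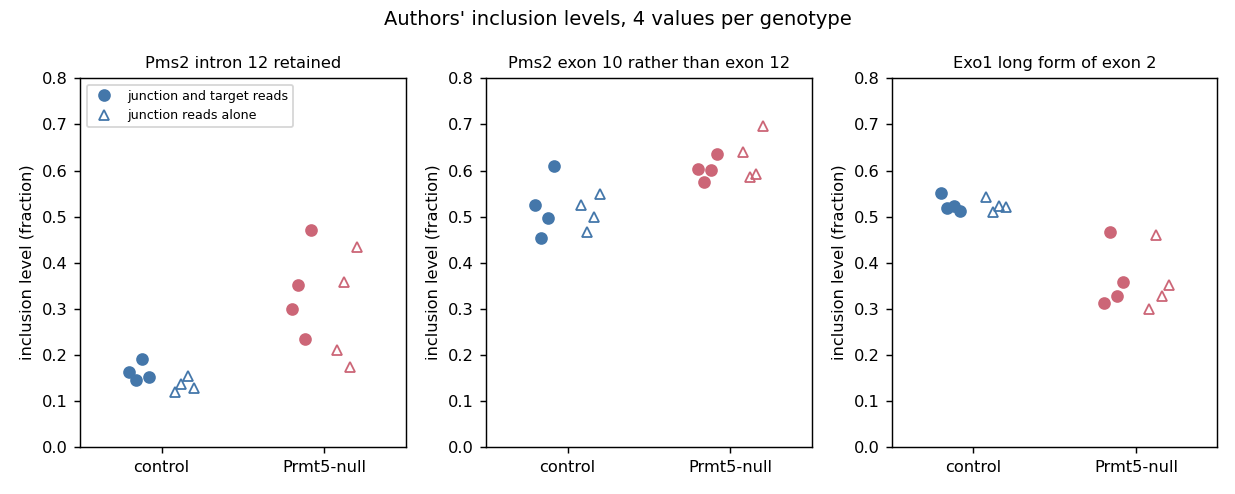
Authors' inclusion levels (y axis, fraction) of the 3 events in control and Prmt5-null cells, 4 values per genotype; circles use junction and target reads, triangles junction reads alone. Circles and triangles of the genotypes are apart for Pms2 intron 12 and for the long form of Exo1 exon 2, while the circles of Pms2 exon 10 overlap.

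The rest of the pathway was read from 4 lists with 58 genes, all of which were tested. Of these 9 (15.5%) passed the adjusted p of 0.05, close to the 13.8% of all genes, 4 higher and 5 lower, and none changed by 1.5-fold. Their median log2 fold change was -0.0095. The count was 2 without PRMT5-10771 and 5 without CTRL-10596.

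Among 13 cofactors and regulators of AID, 1 rose and none fell (7.69%, against 13.8% of all genes). This was Ptbp2, an RNA-binding protein reported to help AID bind switch regions. It rose from 852 to 1205 normalized counts (log2 fold change 0.50, adjusted p = 0.0411, limma). Of 10 other uracil and base excision genes, Polb, the polymerase of short-patch base excision repair, rose by 0.44 on the log2 scale (2651 against 1950 normalized counts, adjusted p = 0.00398, limma). Lig3, the ligase that can seal the repaired strand, fell by 0.30 (2676 against 3301, adjusted p = 0.0213, limma). The other 8 of that list did not pass, so 20% of it passed against 13.8% of all genes.

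Of 19 other mismatch repair genes none rose and 3 fell (15.8%, where 13.8% of all genes passed and 7.33% passed downwards). Pold4 and Pold1, a small and the catalytic subunit of the replicative polymerase δ that fills excised strands without error, were among these. Pold4 fell by 0.49 on the log2 scale, from 2921 to 2065 normalized counts (adjusted p = 0.0139, limma), and Pold1 fell by 0.37, from 6750 to 5209 (adjusted p = 0.00897, limma). The other subunits Pold2 and Pold3 had log2 fold changes of -0.03 and -0.0022 and did not pass.

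Of 16 other genes of translesion synthesis and PCNA ubiquitination, 2 rose and 1 fell (18.8%, against 13.8% of all genes). Polk, a polymerase of the same family as Polh and Rev1, rose by 0.55 on the log2 scale (1589 against 1078 normalized counts, adjusted p = 0.0407, limma), with libraries that overlapped between the genotypes. Poli, another polymerase of that family, had a log2 fold change of 0.31 and did not pass (adjusted p = 0.0865, limma). PCNA ubiquitination recruits these polymerases to stalled forks. Its E2 enzyme gene Ube2a rose by 0.36 (adjusted p = 0.0186, limma) and its E3 ligase gene Rad18 fell by 0.35 (adjusted p = 0.0184, limma). Rev3l and Mad2l2, which encode subunits of polymerase ζ, the partner of REV1 in extending from lesions, had log2 fold changes of -0.15 and -0.26 and did not pass (adjusted p = 0.606 and 0.164, limma).

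Several of these genes are used in S phase, and a list of 19 proliferation genes was set beside them. None rose and 4 fell (21.1%, where 13.8% of all genes passed and 7.33% passed downwards), with Ccne1 the largest (log2 fold change -0.58, adjusted p = 0.00463, limma). The summed level ran from 257293 to 277725 in Prmt5-null and from 274741 to 301088 normalized counts in control libraries, and the ranges overlapped. The part of proliferation in the results was not tested, and in bulk RNA fewer cells of a type and less RNA per cell cannot be told apart.

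The labelled cell type was checked against its markers. The share passing was 22.2% for B cell, 40% for plasma cell, 33.3% for fibroblast and 25% for myeloid markers, against 13.8% of all genes. Summed B cell markers ran from 160963 to 183935 in Prmt5-null and from 153842 to 169425 normalized counts in control libraries. Of the 9 markers, Cd79a, a part of the B cell receptor, fell by 0.74 on the log2 scale (8114 against 13526, adjusted p = 0.000327, limma). Fas, a death receptor of germinal center B cells, rose by 0.47 (7295 against 5229, adjusted p = 0.00504, limma). Plasma cell markers summed to 37685 to 45352 against 41182 to 58366, and 2 of 5, Xbp1 and Prdm1, fell. Jchain, Irf4 and Sdc1 had log2 fold changes of -0.57, 0.19 and 0.16 and did not pass. T cell markers summed to at most 41.5 and myeloid markers to at most 916 normalized counts in any library; of the 4 myeloid markers tested, Adgre1 rose (164 against 101 normalized counts). All 9 fibroblast markers tested, of 10 listed, had fold changes above 0, and 3 rose, of which Col3a1 (log2 fold change 1.02, adjusted p = 0.0136, limma) and Col1a2 (0.72, adjusted p = 0.0213, limma) had the smallest adjusted p. Their sum was 5739 to 10168 in Prmt5-null and 3594 to 6398 normalized counts in control libraries. The library with the most Rev1, PRMT5-10618, had the lowest fibroblast sum of its group, 5739, which lay below the 6398 of CTRL-10650. The part of feeder RNA in the level of Rev1 and of the other genes was not tested.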

How the data were processed

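RNA-seq of ribosome-depleted RNA from 4 Prmt5-null and 4 control iGB cultures was used. Per the labels, the authors trimmed reads with Trimmomatic 0.32, aligned them with STAR 2.3.0e to mm10, which is GRCm38, and counted exons of Ensembl genes with featureCounts 1.4.4. The authors deposited a normalized signal, the count divided by the size factor of DESeq2 1.14.1. For splicing, the authors deposited rMATS inclusion levels and reads with their difference scores, p-values and FDR values; the scores and p-values were not used. Every gene value was a whole multiple of 1 read (100% per library, within 0.01 read), which gave the totals.

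Genotypes were compared with limma 3.58.1 (lmFit, eBayes with a trend, R 4.3.3) on log2(normalized count + 1) over genes with a mean of at least 10, with Benjamini-Hochberg adjustment at 0.05. edgeR 4.0.16 and DESeq2 1.42.0 on the recovered reads were alternatives, all tested on simulated data. In the simulated data limma recovered 73.7% of the genes changed by 1 on the log2 scale, with 9 false calls. Smaller changes were not simulated. Single values used exact two-sided permutation tests over the libraries (SciPy 1.17.1, Python 3.11.15). The labels call the samples independent biological samples, 1 mouse number each. Members and lists were chosen with earlier results of these data known. Named were all members and their events, Prmt5, up to 4 called genes of each pathway list, up to 2 of each marker list and the 2 genes most like each member. Eif5b, Fbxo11, Gm42421, Gm37062, Pold2, Pold3, Poli, Rev3l, Mad2l2, Jchain, Irf4 and Sdc1 were added after their values were seen. Some genes of the pathway are not reported here. Genes with near-identical copies are uncertain, since multiply mapped reads were not counted.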

Additional observations from a re-analysis of the deposited data

How the results depend on the processing

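Across pseudocounts, filters on low values, quantile normalization, a fit without trend, edgeR and DESeq2 on recovered reads, stricter thresholds, leaving out each library and a block for experiment (the design text gives 2, with 2 libraries of each genotype in each) over all 18 possible placements, Rev1 was called each time (adjusted p from 4.35e-17 to 0.00248) and no other of the 6 genes was (Ung, adjusted p from 0.0675 to 0.209). Leaving out each library gave log2 fold changes of 0.79 to 0.89 for Rev1, 0.15 to 0.24 for Ung, 0.14 to 0.22 for Pms2, 0.10 to 0.21 for Exo1, -0.06 to -0.0047 for Msh6 and -0.033 to 0.0502 for Polh. The sign of Polh turned without PRMT5-10770 (-0.033), PRMT5-10771 (-0.02) or CTRL-10596 (-0.0087); the cause was not tested. Calls among the 58 other pathway genes went from 9 to 2 at an adjusted p below 0.01 and to 0 with a 1.5-fold change, with 2 to 10 when a library was left out. Over all genes the 2249 calls became 971 and 1053 under these thresholds and 1371 to 2369 without a library. The 3 splicing events became 0 at a difference of at least 0.25, since all differ by less. No paired analysis was possible because mouse numbers are not shared between the genotypes and no label ties a library to its experiment. All 6 genes had over 1000 normalized counts in every library, whereas each splicing value rests on 118 to 269 reads, which limits its precision.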

Other observations

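Over the 8 libraries and 13300 genes with a mean of at least 50, the genes whose log2 levels followed Rev1 most closely were Dffb, the nuclease that cuts DNA in apoptosis (r = 0.99), and Ddit4l, an inhibitor of mTOR signalling (r = 0.99). Both rose in Prmt5-null cells, Dffb from 1114 to 1716 normalized counts (adjusted p = 0.000377, limma) and Ddit4l to 102, by 2.00 on the log2 scale (adjusted p = 0.000142, limma), so the correlation includes the difference between the genotypes. The closest genes to Pms2 were Pyroxd1 (r = 0.96), which rose, and Eif2a (r = 0.95), and those closest to Exo1 were Snora17 (r = 0.99) and Xdh (r = 0.97). For Ung they were Gm5555 and Ndufb6 (both r = 0.98), for Msh6 Gm5391 (r = 0.96) and Fkbp5 (r = 0.94), and for Polh Gm6444 and Gm13498 (both r = 0.96). These genes were the highest of many on the same 8 libraries, which also share their depth and scaling, and they are given as a description.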
